A study of Canis lupus familiaris with 10 samples.

Results

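The 10 genes described here are coenzyme Q synthesis genes: the tail synthase subunits PDSS1 and PDSS2, the ring enzymes COQ2, COQ3, COQ5, COQ6 and COQ7, and the accessory proteins COQ4, COQ9 and COQ10B. They were taken by name from the array annotation. Each had 1 probe set with a single gene symbol, so 10 of 15947 named genes on the array are covered. The set was chosen by the treated minus control change of COQ7, which was among the largest rises when both cell lines were averaged, and the other genes were added as steps of the same pathway. Its treatment changes are therefore given as a description, without a test, while the other 9 genes were read against the threshold of a fit over all 32391 probe sets.

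Expression was measured with Affymetrix canine gene arrays in CLBL-1 and 17-71, both labelled as canine B-cell lymphoma cell lines with lymph node as tissue source. Treated cells had received 100 nM of an inhibitor of PRMT5, the arginine methyltransferase that places symmetric dimethyl marks. The labels name the compound PR220 and the study names it C220. CLBL-1 gave 3 control and 2 treated arrays collected on day 2, and 17-71 gave 2 control and 3 treated arrays collected on day 4. The effect of the line cannot be told apart from that of the day. The study calls its replicates biological, while the labels do not mention separate cultures. P-values reflect only the spread among these arrays.

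Coenzyme Q, or ubiquinone, is a lipid of the inner mitochondrial membrane that carries electrons from complex I, complex II and several dehydrogenases to complex III. Its long isoprenoid tail comes from the mevalonate route and is assembled by PDSS1 with PDSS2. COQ2 joins the tail to 4-hydroxybenzoate, and the ring is then hydroxylated and methylated in the mitochondrial matrix by a membrane-bound assembly of COQ proteins. COQ7 is the hydroxylase that turns demethoxyubiquinone into the substrate of the last methylation, and it works bound to COQ9.

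The arrays of a group were close to each other, with Pearson's r of 0.990 to 0.993 over all probe sets, and array medians lay between 3.71 and 3.79. Values are log2 levels after robust multi-array averaging (RMA). Probe sets differ in how strongly they bind, so levels are compared between samples and not between genes. The levels come from whole cultures, where fewer cells of a type and less RNA per cell cannot be told apart. In CLBL-1 control cells all 7 measured B cell markers read 7.70 or higher, with MS4A1 (CD20) at 12.03. In 17-71 control cells MS4A1 read 2.19, CD79A 3.72 and EBF1 3.55, all below the median of the table (3.75), CD79B and BLNK read 4.07 and 4.05, and PAX5 and CD22 read 5.04 and 7.37. The defining B cell markers were thus largely low in 17-71. Of the T and NK cell markers, CD3G read 8.96 in control CLBL-1 and 4.61 in control 17-71, CD3D 6.83 and 2.75, and CD3E 1.83 and 1.93. CD2 read 4.89 and 8.18, CD8A 3.38 and 3.63, and NKG7 2.68 and 3.24. Among 6 myeloid markers only LYZ was above the median of the table in these cells, at 11.13 and 10.79. Of 6 stromal and endothelial markers, 1 was above that median in control CLBL-1 and 3 in control 17-71. The highest was COL1A1 (4.47 and 4.21), and PECAM1 read 2.71 and 4.07.

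**Figure D1:**
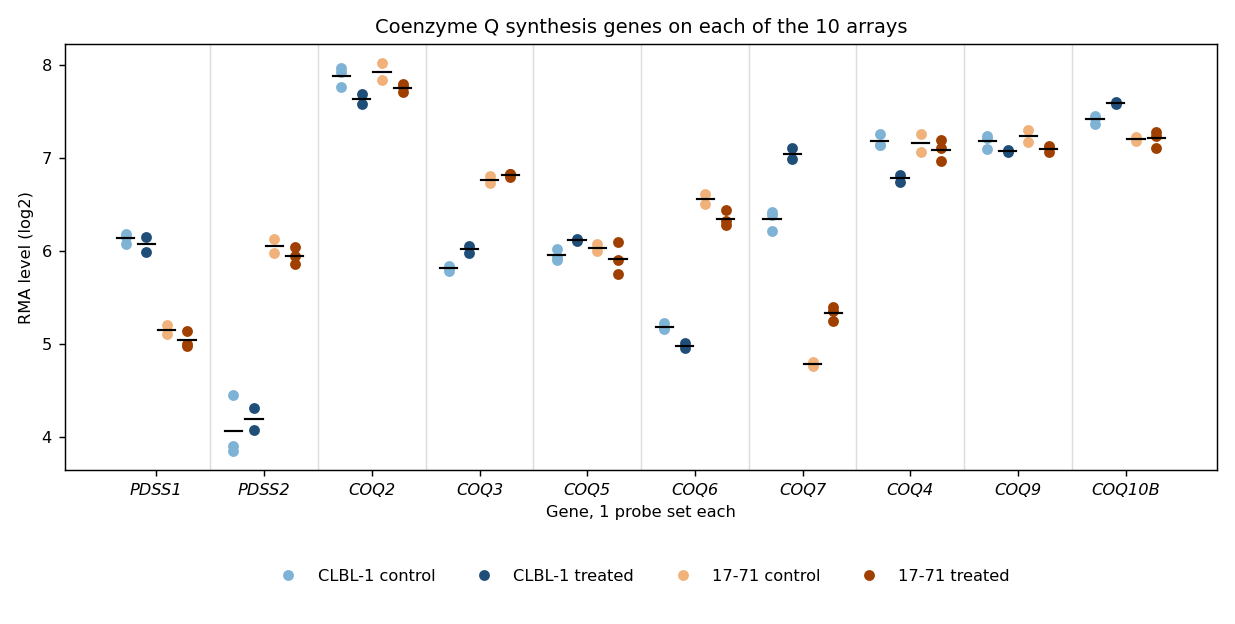
Log2 RMA level (y axis) of each coenzyme Q gene (x axis) on the 10 arrays, coloured by group, with points for arrays and a bar for the group mean. COQ7 separates all 4 groups, from 4.79 in 17-71 control to 7.05 in treated CLBL-1. COQ2, COQ4, COQ5 and COQ9 lie at like levels in the control cells of both lines.

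COQ7 read higher in treated than in control cells of both lines. In CLBL-1 the 3 control arrays read 6.39, 6.42 and 6.22 and the 2 treated arrays 6.99 and 7.11. In 17-71 the 2 control arrays read 4.81 and 4.76 and the 3 treated arrays 5.25, 5.35 and 5.40. Treated arrays lay above control arrays without overlap in each line, and the lines did not overlap either, since the highest treated 17-71 array was below the lowest control CLBL-1 array. The difference was 0.70 on the log2 scale in CLBL-1 (SE 0.104, 1.63-fold, 2 treated and 3 control arrays). It was 0.55 in 17-71 (SE 0.094, 1.46-fold, 3 treated and 2 control arrays). Such separation upwards in both lines was found for 3.08% of all probe sets, and COQ7 was chosen for it. Among 15947 genes its change ranked 40 from the top in CLBL-1 and 77 in 17-71.

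The gap between the COQ7 changes of the 2 lines is a description without a test, because COQ7 was chosen for its treatment change. CLBL-1 minus 17-71 was 0.16 on the log2 scale (SE 0.132). Over all probe sets 0.0309% passed a limma test of this difference between lines, and 0 of the other 9 coenzyme Q genes did. At an unadjusted p below 0.05, limma gave 1 of the 9 against 11.3% of all probe sets. That gene was COQ4 (difference -0.33, 95% interval -0.647 to -0.0095, adjusted p = 0.429).

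**Figure D2:**
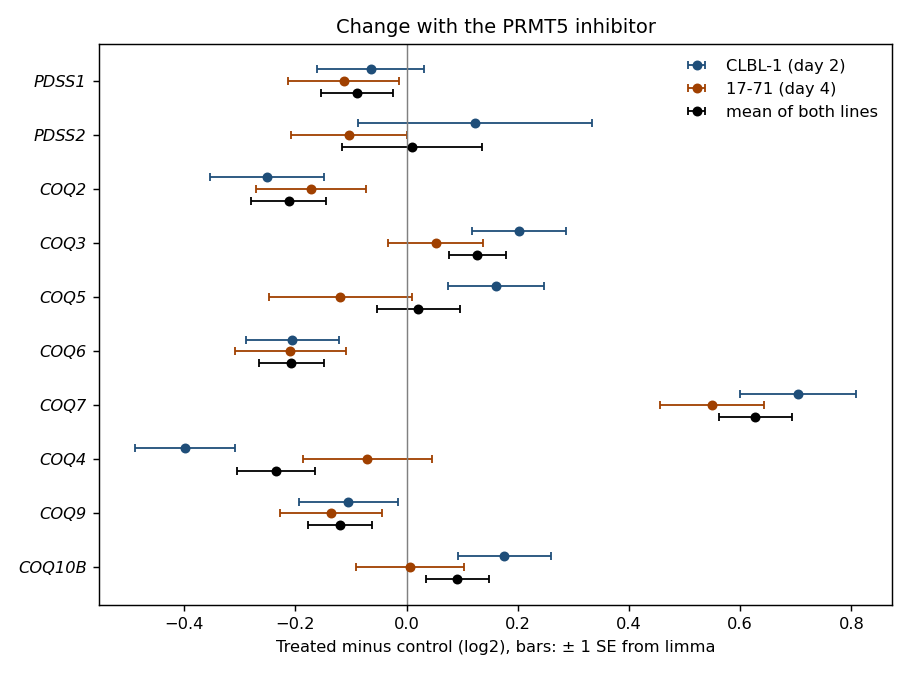
Treated minus control difference on the log2 scale (x axis) for each gene (y axis) in CLBL-1, in 17-71 and as the mean of both, with bars of 1 SE from limma. COQ7 lies at 0.70 and 0.55, and the next highest gene, COQ3, at 0.20 and 0.05.

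None of the other 9 genes passed the threshold (adjusted p below 0.05) in either line or as the mean of both, and their changes were smaller than that of COQ7. In CLBL-1 they ran from -0.40 for COQ4 to 0.20 for COQ3, with 4 positive, 5 negative and a median of -0.065, beside a median of 0.0057 over all probe sets. In 17-71 they ran from -0.21 for COQ6 to 0.05 for COQ3, with 2 positive, 7 negative and a median of -0.11, beside 0.0092. The COQ7 difference exceeded the median of the other 9 by 0.77 in CLBL-1 and by 0.66 in 17-71, which is a description because COQ7 was chosen for it. Limma called 0 of 9 in CLBL-1 (0.133% of all probe sets were called) and 0 of 9 in 17-71 (0% of all). For the mean of both lines, called the common effect, it called 0 of 9 (1.59% of all). At an unadjusted p below 0.05 the counts of 9 were 1 in CLBL-1 (COQ4), 0 in 17-71 and 4 for the common effect (COQ2, COQ3, COQ4 and COQ6), against 13.7%, 9% and 14.5% of all probe sets. Of the 15947 named genes 2707, 1375 and 2939 were below it, in the same order.

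At the start of the route, the tail synthase subunits gave small differences with wide intervals. PDSS1 read 6.14 ± 0.059 (SD, n = 3) in control and 6.07 ± 0.11 (n = 2) in treated CLBL-1 cells, and 5.16 ± 0.071 (n = 2) and 5.04 ± 0.087 (n = 3) in 17-71. Its common effect was -0.09 (95% interval -0.236 to 0.0584, limma adjusted p = 0.604). PDSS2 was the most variable of the 10, with control CLBL-1 arrays at 3.91, 4.45 and 3.85 and treated arrays at 4.32 and 4.07. Its groups overlapped, and its common effect was 0.01 (95% interval -0.279 to 0.299, adjusted p = 0.984).

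COQ2, the prenyltransferase that joins tail and ring, had lower values in treated cells. CLBL-1 control arrays read 7.76, 7.97 and 7.93 and treated arrays 7.68 and 7.58. The 17-71 control arrays read 7.84 and 8.02 and treated arrays 7.71, 7.76 and 7.80. The groups did not overlap in either line, although the gap in 17-71 was narrow. The common effect was -0.21 (SE 0.0675, 95% interval -0.366 to -0.0573) and did not pass in limma (adjusted p = 0.193).

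Of the ring enzymes, COQ6, a flavin-dependent hydroxylase, also had lower values in treated cells. It read 5.16, 5.23 and 5.18 in control and 4.96 and 5.01 in treated CLBL-1 cells. In 17-71 it read 6.51 and 6.61 in control and 6.28, 6.45 and 6.33 in treated cells. The groups did not overlap in either line and the difference was -0.21 in each (SE 0.0835 in CLBL-1 and 0.1 in 17-71). The common effect, also -0.21 (95% interval -0.341 to -0.0734), did not pass (limma adjusted p = 0.141), though it did when dim probe sets were left out (adjusted p = 0.0445). Leaving them out raised all calls for the common effect from 515 to 1421. COQ3, the O-methyltransferase, had the highest change after COQ7. It read 5.84, 5.79 and 5.82 in control and 5.98 and 6.06 in treated CLBL-1 cells, without overlap. In 17-71 it read 6.73 and 6.81 in control and 6.80, 6.83 and 6.83 in treated cells, with overlap. Its common effect was 0.13 (95% interval 0.0107 to 0.244, adjusted p = 0.301). COQ5, the C-methyltransferase, read 0.16 (SE 0.0866) in CLBL-1 and -0.12 (SE 0.129) in 17-71, neither past the threshold (adjusted p = 0.482 and 0.819).

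COQ9, the lipid-binding partner of COQ7, had slightly lower values in treated cells. CLBL-1 control arrays read 7.235, 7.094 and 7.212 and treated arrays 7.087 and 7.064. The 17-71 control arrays read 7.30 and 7.17 and treated arrays 7.06, 7.13 and 7.12. Treated arrays were below control arrays in both lines by narrow margins, and the common effect was -0.12 (95% interval -0.252 to 0.0113, limma adjusted p = 0.396). COQ4, which is needed to hold the assembly together, read 7.14, 7.25 and 7.15 in control and 6.74 and 6.82 in treated CLBL-1 cells, the largest negative difference of the 9 (-0.40, 95% interval -0.622 to -0.175, adjusted p = 0.17). With an intensity trend and robust variances this difference passed (adjusted p = 0.0289). That setting raised the calls over all probe sets in CLBL-1 from 43 to 1310. In 17-71 COQ4 overlapped between groups, with control arrays at 7.25 and 7.07 and treated arrays at 6.97, 7.19 and 7.11 (difference -0.07, SE 0.116). COQ10B, a lipid-binding protein needed for the function of coenzyme Q rather than a step of its synthesis, read 0.18 higher in treated CLBL-1 cells (SE 0.0839) and 0.01 in 17-71 (SE 0.0966), with adjusted p = 0.433 and 0.991.

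Treated arrays of COQ2, COQ6 and COQ9 thus lay below the control arrays in both lines, while those of COQ7 lay above. That is 3 of the 9 other genes without overlap downwards in both lines, against 3.79% of all probe sets, and 0 of 9 upwards, against 3.08%. In CLBL-1 alone 7 of 9 did not overlap, 3 upwards (16.9% of all probe sets) and 4 downwards (15.5%). In 17-71 alone 3 of 9 did not overlap downwards (13.8%) and 0 of 9 upwards (14.1%). Of the 15947 named genes, 894 did not overlap downwards in both lines and 625 upwards. In CLBL-1 alone 2946 did not overlap downwards and 3197 upwards, and in 17-71 alone 2642 and 2253. The counts carry no test of the group of genes.

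In untreated cells the lines differed in 5 of the 10 genes, a comparison that did not enter the choice of COQ7. Of all probe sets 31.5% passed here, so a difference between these lines was common. COQ7 was 2.94-fold higher in CLBL-1 (6.34 ± 0.11, SD, n = 3) than in 17-71 (4.79 ± 0.033, n = 2), a log2 difference of 1.55 (SE 0.0933, limma adjusted p = 2.73e-06). PDSS1 was 1.97-fold higher in CLBL-1 (difference 0.98, SE 0.091, adjusted p = 4.21e-05). In the other direction PDSS2 was 3.95-fold lower in CLBL-1 (4.07 ± 0.33, n = 3) than in 17-71 (6.05 ± 0.1, n = 2), with a difference of -1.98 (SE 0.179, adjusted p = 3.5e-05). Its level in CLBL-1 was near the median of the table (3.75). COQ6 was 2.59-fold lower (-1.37, SE 0.0828, adjusted p = 2.83e-06) and COQ3 1.93-fold lower (-0.95, SE 0.072, adjusted p = 1.14e-05). The subunits PDSS1 and PDSS2 of the same synthase therefore differed between the lines in opposite directions, and so did the hydroxylases COQ7 and COQ6.

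**Figure D3:**
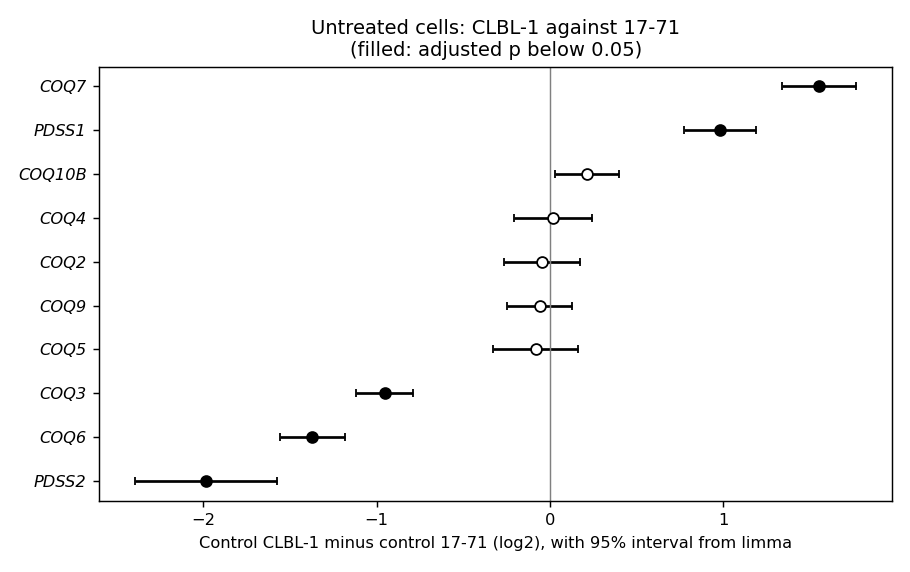
Control CLBL-1 minus control 17-71 difference on the log2 scale (x axis) for each gene (y axis), with 95% intervals from limma. The filled points passed at adjusted p below 0.05: COQ7 (1.55) and PDSS1 (0.98) were higher in CLBL-1, and COQ3 (-0.95), COQ6 (-1.37) and PDSS2 (-1.98) lower.

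The remaining 5 genes did not pass between the untreated lines. COQ2, COQ4, COQ5 and COQ9 had differences from -0.08 to 0.02, and the widest of their 95% intervals, that of COQ5, ran from -0.326 to 0.162. COQ10B read 7.46, 7.44 and 7.36 in CLBL-1 and 7.19 and 7.23 in 17-71, without overlap, and missed the threshold (difference 0.21, 95% interval 0.0284 to 0.396, adjusted p = 0.0817). It passed when dim probe sets were left out (adjusted p = 0.0276) and with an intensity trend and robust variances (adjusted p = 0.0308). For the 5 genes that had passed, the differences between the lines were of like size in treated cells. They were 1.71 for COQ7, 1.03 for PDSS1, -0.80 for COQ3, -1.37 for COQ6 and -1.76 for PDSS2. COQ4 and COQ5 differed by -0.31 and 0.20 in treated cells, against 0.02 and -0.08 in control cells. Treatment brought COQ7 in 17-71 to 5.34 ± 0.078 (n = 3), which was still 1.00 below control CLBL-1 on the log2 scale.

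Other factors of the pathway were read from a list of 11 genes, of which 10 were measured. The atypical kinases COQ8A and COQ8B, which keep the assembly active, and COQ10A, the paralogue of COQ10B, had common effects of -0.22, -0.07 and 0.07 (SE 0.117, 0.0886 and 0.0925) and did not pass. Limma called 0 of 10 in CLBL-1 (0.133% of all probe sets), 0 in 17-71 (0%) and 1 for the common effect (1.59%). At an unadjusted p below 0.05 the counts were 1, 0 and 1 of 10, against 13.7%, 9% and 14.5% of all probe sets. PARL, the rhomboid protease that processes the coenzyme Q transport protein STARD7, was the only gene of this list that limma called. It read 7.77, 7.78 and 7.66 in control and 8.14 and 8.15 in treated CLBL-1 cells, and 8.25 and 8.26 in control and 8.54, 8.44 and 8.43 in treated 17-71 cells. The treated arrays lay above the control arrays in both lines, and the common effect was 0.31 (SE 0.0555, adjusted p = 0.0354). That call was lost without any 1 of the 10 arrays (adjusted p = 0.0611 to 0.129) and with a replicate block (adjusted p = 0.367). STARD7 itself had a common effect of -0.05 (adjusted p = 0.741). FDX2, a ferredoxin that hands electrons to COQ6, had the widest changes of the list, 0.58 in CLBL-1 (SE 0.248) and -0.26 in 17-71 (SE 0.226), without passing in either (adjusted p = 0.391 and 0.767).

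The mevalonate route, which supplies the tail, gave 6 measured genes of 9 listed, and limma called 0 of 6 in CLBL-1 (0.133% of all probe sets), 0 of 6 in 17-71 (0%) and 0 of 6 for the common effect (1.59%). At an unadjusted p below 0.05 the counts were 2, 1 and 3 of 6, against 13.7%, 9% and 14.5% of all probe sets. All 6 were negative in CLBL-1 (median -0.14) and 4 of 6 positive in 17-71 (median 0.01). GGPS1, which makes geranylgeranyl diphosphate, had the largest negative value in CLBL-1, with control arrays at 6.58, 6.63 and 6.54 and treated arrays at 5.77 and 6.13 (difference -0.63, SE 0.129, adjusted p = 0.15). In 17-71 its arrays overlapped (-0.23, SE 0.145, adjusted p = 0.669). PMVK, phosphomevalonate kinase, read -0.47 in CLBL-1 (SE 0.123) and -0.13 in 17-71 (SE 0.101). MVD, mevalonate diphosphate decarboxylase, read -0.01 in CLBL-1 (SE 0.082) and 0.33 in 17-71 (SE 0.0829).

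All 8 other users of prenyl diphosphates were measured. Limma called 0 of 8 in CLBL-1 (0.133% of all probe sets), 0 in 17-71 (0%) and 0 for the common effect (1.59%). The lowest was RABGGTA, a subunit of Rab geranylgeranyl transferase, with treated arrays below control arrays in both lines and a common effect of -0.34 (SE 0.0698, adjusted p = 0.0573). Unadjusted, 1 of 8 was below 0.05 in each line and for the common effect, near the 13.7%, 9% and 14.5% of all probe sets.

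None of the measured enzymes listed as users of coenzyme Q passed under treatment. The lists held no subunit of complex I. Of all probe sets 0.133% passed in CLBL-1, 0% in 17-71 and 1.59% for the common effect. Of 9 measured dehydrogenases and oxidoreductases that reduce it, of 12 listed, the common effects ran from -0.09 for SDHC to 0.20 for SDHB, both subunits of complex II, with 4 positive and 5 negative. Unadjusted, in the same order, 1, 0 and 2 of these 9 were below 0.05 (13.7%, 9% and 14.5% of all probe sets). Of 8 measured subunits of complex III, of 9 listed, 6 were positive for the common effect, with a median of 0.07. UQCR10 had the highest value, 0.25 (SE 0.0589, adjusted p = 0.0863), and was higher in treated than control cells without overlap in both lines. For these 8 the unadjusted counts were 2, 0 and 2, against the same shares. The 13 measured general mitochondrial proteins, of 14 listed, included, among others, those of import, porins, chaperones and the citric acid cycle. Their median common effect was 0.03 and the range -0.18 (COX4I1) to 0.24 (TOMM22). For the common effect 0 of 13 were called (1.59% of all probe sets) and 3 were below an unadjusted p of 0.05 (14.5%). The highest treatment change in any of these lists was that of FDX2 in CLBL-1, 0.58, and no gene of the lists reached the COQ7 value of the same line.

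**Figure D4:**
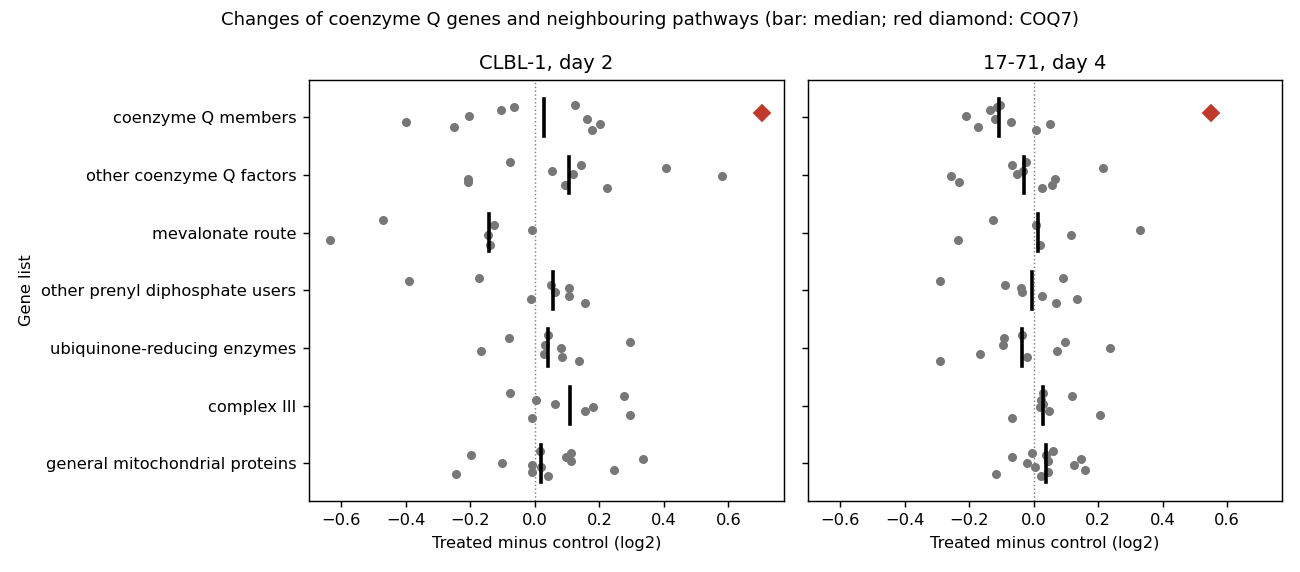
Treated minus control difference on the log2 scale (x axis) for each gene of 7 lists (rows) in CLBL-1 and in 17-71, with a bar at the median and COQ7 as a red diamond. COQ7 lies to the right of every other gene, at 0.70 and 0.55, and the mevalonate route has its median at -0.14 in CLBL-1 and 0.01 in 17-71.

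Of the 6 nearest measured genes around COQ7 on chromosome 6, none had a change of its size. Some genes that lie between these and COQ7 were not measured. The neighbours were taken from the gene order of a RefSeq dog assembly, without coordinates because the build behind the array is not given in the sources used here. TMC7, a transmembrane channel-like gene, overlaps COQ7 there and read 2.262 in control and 2.275 in treated CLBL-1 cells and 2.275 and 2.449 in 17-71, below the median of the table. TMC5 and GDE1 on that side and ITPRIPL2, SYT17 and SMG1 on the other had changes from -0.08 (SYT17) to 0.23 (SMG1, a kinase of nonsense-mediated decay) in CLBL-1. In 17-71 they ran from -0.37 (SMG1) to -0.03 (ITPRIPL2). TMC5 and SYT17 were also below the median of the table in every group, with highest group means of 2.22 and 2.34. None of the 6 neighbours passed for the common effect in limma (adjusted p = 0.558 to 0.987).

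The genes most like COQ7 across the 10 arrays, after the mean of each line was subtracted, were SCFD1, a factor of vesicle fusion (Pearson's r = 0.979), and SUCLG2, a subunit of mitochondrial succinate-CoA ligase (0.974). RBKS, the ribokinase (0.967), NUDC, a dynein-associated chaperone (0.965), and SNX1, a sorting nexin (0.963), followed. Without subtraction the closest were SNX1 (0.994), PPM1K, a mitochondrial phosphatase of branched-chain amino acid breakdown (0.993), SCFD1 (0.993), SUCLG2 (0.992) and CWC27, a cyclophilin of the spliceosome (0.992). These are the highest of 9780 genes, over arrays that share the treatment and, for the raw values, the line. RBKS differed between treated and control cells by 0.91 in CLBL-1 and 0.79 in 17-71, whereas SCFD1 differed by 0.25 and 0.16. Over the arrays of both lines together, after that subtraction, COQ3 (r = 0.849) and COQ10B (0.71) were closest to COQ7 among the coenzyme Q genes. COQ6 (-0.84), COQ2 (-0.836), COQ9 (-0.742) and COQ4 (-0.706) ran against it. These r values were not taken in each line alone. COQ10B changed with treatment by 0.18 in CLBL-1 and 0.01 in 17-71, and COQ4 by -0.40 and -0.07. Without subtraction, where the difference between the lines enters, COQ10B (0.941) and PDSS1 (0.883) were closest and COQ3 turned to -0.853, with COQ6 at -0.964 and PDSS2 at -0.896.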

How the data were processed

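The authors deposited log2 expression values for each probe set of Affymetrix CanGene 1.0 ST arrays, made by robust multi-array averaging (RMA). Affymetrix Expression Console and limma also appear in the submitters' processing notes. The genome build, any filters and the joint or separate normalisation of the lines were not given in the sources used here. RMA equalises the distributions of arrays, so a change in total RNA per cell would not appear. Arrays have no read depth, and their number limits the precision.

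Arrays were grouped by line and treatment from the labels. Two-sided moderated tests with lmFit and eBayes of limma 3.58.1 (R 4.3.3) were run over all 32391 probe sets, per line (residual df 3) for treated against control cells. A joint fit of 4 group means (residual df 6) gave the common effect, the difference between lines and the comparison of controls. Benjamini-Hochberg adjustment covered all probe sets, with a threshold of 0.05. The steps were run on simulated data in which 200 probe sets were changed by a known size. That size was larger than any treatment change of the 10 genes, so the run does not show how well such changes are found. The gene IDs of all 10 genes matched RefSeq entries of dog assembly UU_Cfam_GSD_1.0. Named list genes were those past the threshold and up to 3 per list with the smallest p, with further genes chosen after their values were seen. Genes like COQ7 were the 5 with the highest r above the median of the table. The genes and lists were chosen with earlier results of these data known. Alternatives were other normalisations, a filter on dim probe sets, another variance model, a replicate block and leaving out each array.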

Additional observations from a re-analysis of the deposited data

Results flagged for a closer look

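HMGCS1, the cytosolic synthase that feeds the mevalonate route, went in opposite directions in the lines. All treated arrays lay below the control arrays in CLBL-1 (10.75 against 10.90 as means, difference -0.15) and above them in 17-71 (9.45 against 9.34, difference 0.12). CLBL-1 minus 17-71 was -0.26 and did not pass a test of the difference (limma adjusted p = 0.437). Opposite separation of this kind was found for 3.98% of all probe sets.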

How the results depend on the processing

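The COQ7 change stayed positive under every alternative run. Leaving out each array in turn gave 0.64 to 0.76 in CLBL-1, 0.52 to 0.59 in 17-71 and 0.60 to 0.66 for the common effect. The 5 genes called between the untreated lines kept their calls under every alternative. Counts of calls over all probe sets moved more. In CLBL-1, 43 became 750 without dim probe sets, 1310 with an intensity trend and robust variances, 607 in the joint fit, 0 with the replicate block and 0 without any 1 array. In 17-71, 0 became 35 with the trend and 15 in the joint fit, and stayed at 0 without any 1 array. For the common effect, 515 became 1421, 1404 and 0 without dim probe sets, with the trend and with the block, and 155 to 305 without 1 array. For the difference between lines, 10 became 176, 288 and 0 under the same 3 settings, and 0 to 2 without 1 array. The causes were not tested. Of the 9 other genes, 1 passed in CLBL-1 with the trend (COQ4), 1 at an unadjusted p below 0.05 (COQ4) and 1 for the common effect without dim probe sets (COQ6). Each gene had 1 probe set, so averaging probe sets could not be tried.

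Several differences near 0 changed sign, none of them past the threshold. With the replicate block COQ10B in 17-71 read -0.00855, PDSS2 for the common effect -0.067 and COQ6 for the difference between lines -0.013. COQ6 for that difference also read -0.010 after quantile normalisation and -0.0044 after cyclic loess, and COQ4 between controls -0.078 after cyclic loess. Without 1 array at a time, the ranges that crossed 0 for treatment were -0.14 to 0.015 for PDSS1 in CLBL-1, -0.16 to 0.023 for COQ4 and -0.029 to 0.056 for COQ10B in 17-71, and -0.024 to 0.062 for COQ5 and -0.051 to 0.11 for PDSS2 in the common effect. For the difference between lines they were -0.17 to 0.0088 for COQ2, -0.050 to 0.058 for COQ6, -0.033 to 0.096 for COQ9 and -0.031 to 0.13 for PDSS1. Between controls they were -0.13 to 0.043 for COQ2, -0.074 to 0.11 for COQ4 and -0.12 to 0.0061 for COQ9. For arrays with the same replicate number, deviations from the group means had r = -0.026 to 0.0079. In a group of 2 arrays these deviations mirror each other. The values therefore cannot show whether such arrays shared a culture or a batch.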
